A study of Mus musculus with 2 samples.

Results

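The third and second tag blocks of the wild-type (WT) silica lung library were compared. A tag is an antibody carrying a DNA barcode that marks the cells of 1 suspension before suspensions are pooled and captured together. The third block is tags A0307, A0308 and A0309, and the second block is tags A0304, A0305 and A0306, taken by the column names of the WT table. A cell was kept if 200 or more genes were detected in it and mitochondrial genes took no more than 25% of its reads. Kept cells numbered 5353 in the third block and 5837 in the second block, together 11190 of the 32445 kept cells of the series and 6 of its 17 tags.

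The series holds 1 library from WT mice and 1 from CCR2-/- mice, which lack the receptor that brings inflammatory monocytes into tissue. Both blocks are from C57BL/6 WT mice that received 400 mg/kg silica through the trachea. The labels give days 3, 7 and 21 for the WT library as a whole. They do not give the day, the animal, the age or the sex for a tag, so the blocks are named by tag number and no day is stated. Both blocks share genotype, strain, treatment and library, and no untreated lung enters the comparison. Each p-value therefore measures the spread between tags, which may be technical.

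Inhaled silica crystals are taken up by lung macrophages, whose lysosomes they damage. The injury draws neutrophils, monocytes and lymphocytes, injures the alveolar epithelium and leads to scarring, in which fibroblasts deposit collagen. Macrophages that express Mmp12, Gpnmb and Spp1 are known from scarred lung in mouse and human. Interferons, secreted by infected or injured tissue and by T cells, raise antigen presentation genes in most cell types.

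Third-block tags held 1648, 1833 and 1872 kept cells and 62519503, 70092175 and 68288553 reads, against 1936, 1982 and 1919 cells and 89457577, 93488824 and 77861384 reads in the second block. The third block was read less deeply. The median cell had 23948, 22892 and 21149 reads in the third block, against 32554, 34205 and 28583 in the second block. With every cell thinned to 5000 reads, the median cell still had 781, 776 and 740 detected genes in the third block, against 915, 926 and 855 in the second block. The tags of 1 block resembled each other more than those of the other. Across genes, Pearson's r of log values was 0.9808 to 0.9829 within the third block, 0.9848 to 0.9871 within the second block and 0.9729 to 0.9788 between them, a description over genes that are not independent. Cells that passed marker panels of more than 1 lineage made up 9.34, 9.06 and 7.91% in the third block and 7.49, 8.32 and 7.45% in the second block. Mitochondrial reads made up 7.00, 6.98 and 6.63% in the third block and 6.43, 6.57 and 6.60% in the second block. The WT and CCR2-/- tables share 318 cell barcodes. Lung markers were read in every tag, with the surfactant gene Sftpc at 11630, 8567 and 8565 CPM in the third block, against 6965, 6061 and 10200 CPM in the second block.

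Fewer third-block cells carried the markers of scar-type, complement-expressing and alveolar macrophages, of T cells and of activated fibroblasts, and more carried those of neutrophils, airway cells, alveolar type 1 cells and endothelium. A cell counted as positive for a marker panel with at least 2 reads of each of at least 3 of its genes. Of 30 panels, 25 had 30 or more positive cells and were tested with edgeR's quasi-likelihood test on cells per tag, adjusted over panels. Of the Mmp12 Gpnmb positive cells of both blocks, 470 passed with exactly 3 genes, and 809 more cells had 2. Shares are parts of a whole, so a rise in 1 population lowers others. Of the tested panels, 24% were higher in the third block (6 of 25) and 44% were lower (11 of 25). The exact permutation test of 3 against 3 tags cannot go below p = 0.1 and is not given per panel.

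Cells positive for the Mmp12 Gpnmb macrophage panel were 3.09, 4.15 and 2.94% of cells in the third block, against 10.8, 11.6 and 8.23% in the second block. All third-block tags lay below all second-block tags (log2 change -1.59 ± 0.21, adjusted p = 2.26e-10). With cells thinned to 5000 reads, where 1 read counted as positive, the means were 1.64% in the third block and 7.61% in the second block. C1q macrophage positive cells, a type rich in complement C1q, were 2.00, 1.85 and 1.07% of cells in the third block, against 3.25, 4.44 and 3.34% in the second block. Alveolar macrophage positive cells, the resident phagocytes of the airspace, were 2.61, 2.45 and 4.65% of cells in the third block, against 5.01, 6.61 and 6.20% in the second block. Neither macrophage panel overlapped between blocks (log2 change -1.17 ± 0.25, adjusted p = 4.15e-05 for C1q macrophages and -0.87 ± 0.21, adjusted p = 3.93e-04 for alveolar macrophages). Genes of the C1q panel did not all fall in reads summed over all kept cells. Pf4 passed as higher, but not without A0304, A0306 or A0308 (log2 change 0.73 to 0.82), and it was at -0.13 at 5000 reads per cell. Ms4a7 passed as lower, but missed the threshold in 5 of the fits without 1 tag. Classical monocyte positive cells averaged 5.44% ± 0.663 in the third block and 6.83% ± 1.01 in the second block (SD, n = 3 each) and did not pass (log2 change -0.33 ± 0.20, adjusted p = 0.119). Genes of this panel moved in both directions in reads summed over all kept cells. Over the alternatives run, log2 changes were -1.52 to -1.33 for Ly6c2 and -1.15 to -0.94 for Ms4a4c. They were 0.61 to 1.15 for F13a1 and 0.67 to 0.97 for Vcan.

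T cell positive cells were 1.70, 1.58 and 1.07% of cells in the third block, against 4.75, 3.58 and 4.33% in the second block. Every third-block tag was below every second-block tag (log2 change -1.54 ± 0.25, adjusted p = 8.92e-08), and the means at 5000 reads per cell were 1.08% in the third block and 3.19% in the second block. Regulatory T cell positive cells, which restrain other T cells, numbered 7 in the third block and 36 in the second block (log2 change -2.18 ± 0.55, adjusted p = 4.59e-04). B cells averaged 2.19% ± 0.522 in the third block and 3.76% ± 1.35 in the second block, natural killer cells 1.06% ± 0.295 in the third block and 1.66% ± 0.224 in the second block, and mature dendritic cells, which carry antigen to lymph nodes, 0.977% ± 0.247 in the third block and 1.68% ± 0.306 in the second block (SD, n = 3 each). B cells passed at adjusted p = 0.00360, natural killer cells at 0.0407 and mature dendritic cells at 0.0194, and none of them overlapped between blocks. Nonclassical monocyte positive cells also passed as lower (log2 change -1.01 ± 0.36, adjusted p = 0.0138), but their tags overlapped.

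Activated fibroblast positive cells, a panel of matrix and matricellular genes, were 3.09, 3.33 and 2.46% of cells in the third block, against 8.37, 8.17 and 6.77% in the second block. The third block tags all lay far below the lowest second-block tag (log2 change -1.39 ± 0.21, adjusted p = 2.90e-08). At 5000 reads per cell the means were 1.65% in the third block and 6.13% in the second block. The first block of the same library, used on neither side, averaged 2.93%. Cells positive for the broader fibroblast panel averaged 15.7% ± 1.14 in the third block and 12.8% ± 0.960 in the second block (SD, n = 3 each), which did not pass (adjusted p = 0.119). Adventitial fibroblasts, which lie around vessels and airways, averaged 5.18% ± 0.689 in the third block and 4.55% ± 0.469 in the second block and did not pass either (adjusted p = 0.383). Lymphatic endothelium was lower in the third block (log2 change -1.08 ± 0.36, adjusted p = 0.00881), with 28 cells in the third block and 65 in the second block.

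Neutrophil positive cells were 5.76, 12.9 and 10.7% of cells in the third block, against 4.75, 5.85 and 6.04% in the second block. Tags A0308 and A0309 were high, while A0307 lay within the second block's range (log2 change 0.82 ± 0.20, adjusted p = 2.55e-04). The fit draws its estimate of spread partly from the other panels, so this p does not rest on the spread of the neutrophil shares alone. Alveolar type 1 cells, the thin gas-exchange epithelium, were 3.28, 3.49 and 2.62% of cells in the third block, against 1.91, 2.42 and 2.03% in the second block (log2 change 0.56 ± 0.24, adjusted p = 0.0376). Endothelium positive cells were 29.5, 29.4 and 27.8% of cells in the third block, against 20.8, 23.8 and 21.3% in the second block (log2 change 0.39 ± 0.17, adjusted p = 0.0397). Aerocytes, the capillary cells specialised for gas exchange, were also higher, at 5.40% ± 0.739 in the third block and 3.80% ± 0.507 in the second block (SD, n = 3 each, adjusted p = 0.0306). General capillary positive cells averaged 16.8% ± 0.286 in the third block and 15% ± 2.06 in the second block. Their tags overlapped and they did not pass (adjusted p = 0.372). Club cells, secretory cells of the airway, averaged 1.18% ± 0.538 in the third block and 0.531% ± 0.211 in the second block, and ciliated cells 0.978% ± 0.348 in the third block and 0.479% ± 0.110 in the second block. Both airway panels passed (adjusted p = 0.00588 and 0.0173) although their tags overlapped.

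The calls for Mmp12 Gpnmb macrophage, C1q macrophage, alveolar macrophage, T cell, Regulatory T cell and activated fibroblast cells did not change when any 1 tag was left out, at log2 changes between -2.83 and -0.70 over all alternatives run. The other 11 calls each missed the threshold in at least 1 such fit. The call was lost for Neutrophil without A0305 (0.0502), Nonclassical monocyte without A0304 or A0306 (0.0617 to 0.225), Mature dendritic cell without A0304, A0306 or A0309 (0.0505 to 0.109) and B cell without A0306 (0.111), with the adjusted p in brackets. It was also lost for Natural killer cell without A0304, A0305, A0306, A0308 or A0309 (0.0659 to 0.159), Alveolar type 1 without A0304, A0306, A0307 or A0308 (0.0663 to 0.123), Club cell without A0304, A0305 or A0307 (0.0715 to 0.111) and Ciliated cell without A0304, A0306, A0307 or A0308 (0.0525 to 0.114). The remaining losses were for Endothelium without A0304, A0306 or A0308 (0.0775 to 0.126), Aerocyte capillary without A0304, A0306, A0308 or A0309 (0.0583 to 0.105) and Lymphatic endothelium without A0304 or A0308 (0.0715 to 0.104). Under the other settings tried, calls were lost for Nonclassical monocyte at 10 reads per positive gene (0.418) and at 5000 reads per cell (0.0968), B cell under a stricter cell filter (0.114), Natural killer cell at 10 reads per positive gene (0.0591), Alveolar type 1 under a stricter cell filter (0.148), Club cell at 1 read per positive gene (0.407), Ciliated cell without cells of several lineages (0.0520), Endothelium at 10 reads per positive gene (0.219) and Aerocyte capillary at 10 reads per positive gene (0.0534) and without cells of several lineages (0.0886). Smooth muscle or pericyte cells, at 3.07% ± 0.500 in the third block and 2.16% ± 0.0992 in the second block (SD, n = 3 each), missed the threshold (adjusted p = 0.0552) but passed as higher under 5 of the other settings. Classical monocytes passed as lower at 1 read per positive gene (adjusted p = 0.0326), fibroblasts as higher under a stricter cell filter (0.0195), and without cells of several lineages alveolar type 2 cells passed as higher (0.0289) and conventional dendritic cells as lower (0.0280).

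**Figure D1:**
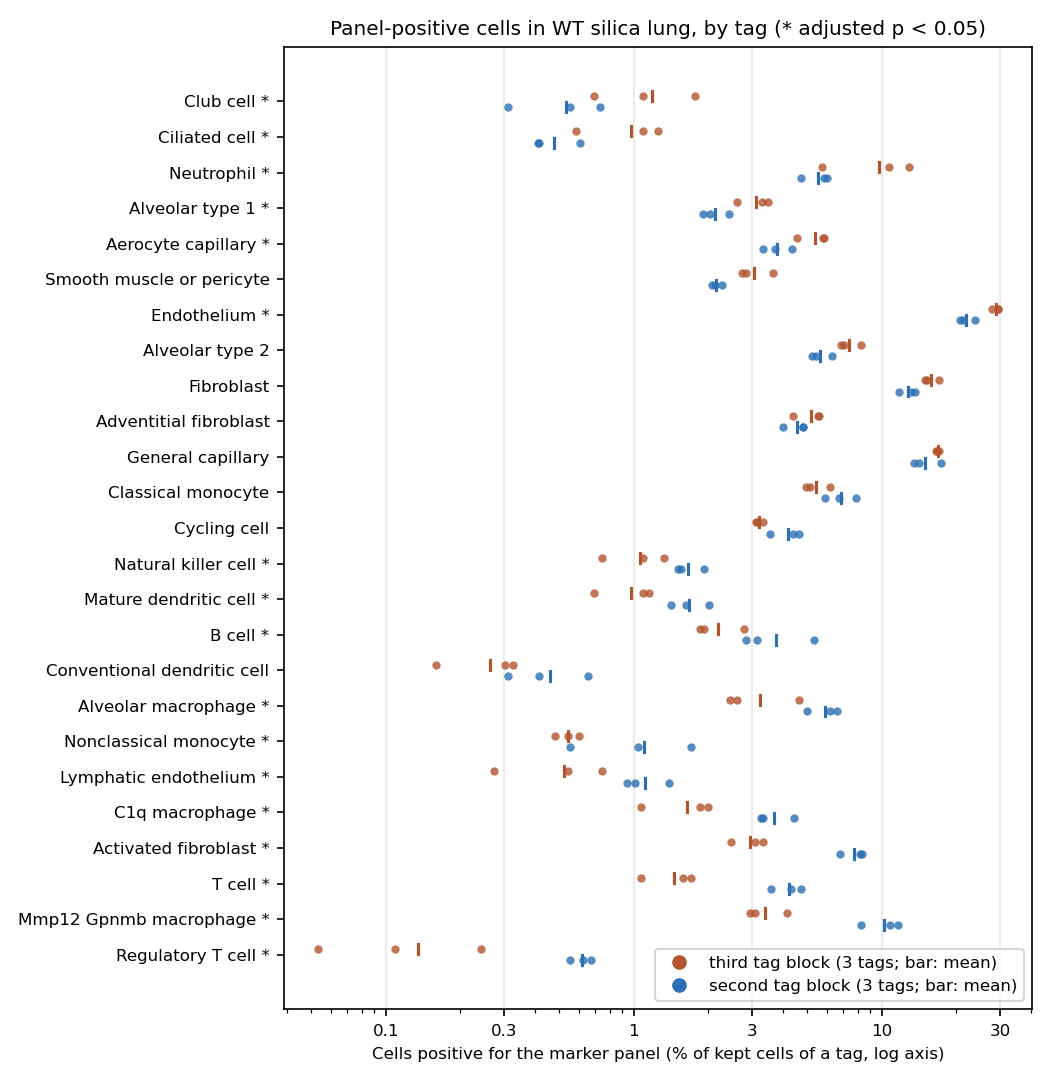
Share of cells positive for each marker panel, as percent of the kept cells of a tag on a log axis, for 25 tested panels in WT silica lung. Points are the 3 tags of a block, short bars their mean, and an asterisk marks an adjusted p under 0.05. Mmp12 Gpnmb macrophage, T cell and activated fibroblast panels sit lower in the third block with no overlap, while one neutrophil tag of the third block lies among those of the second block.

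Reads of all kept cells were summed per tag and 19534 genes were tested with edgeR's quasi-likelihood test and Benjamini-Hochberg adjustment. In the third block 540 genes were higher (2.76%) and 756 lower (3.87%), and the median log2 change of all genes was 0.0055. Tags of the blocks did not overlap for 12.8% of genes with the third block above and for 13.5% with it below. Levels are a gene's reads scaled to the total of the tag (CPM), given in tag order, and log2 changes are the third over the second block ± SE. In these sums, fewer cells of a type and less RNA per cell cannot be told apart. Several genes named below are also panel genes, so their sums and the shares above draw on the same reads and are not separate results. Among them are Mmp12, Gpnmb, Inhba, Spp1, Arg1, Ctla4, Ikzf2, Cd3e, Cd79a, Grem1, Ltbp2, Mmp9, Retnlg, S100a8, Scgb1a1, Foxj1, Ednrb and Prx.

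Genes of scar-associated macrophages were lower in the third block. Of 20 such genes, 12 passed as lower and 0 as higher, with a median log2 change of -0.81. Mmp12, an elastase of macrophages, had 28.1, 42.2 and 47.2 CPM in the third block, against 259, 262 and 142 CPM in the second block. Every third-block tag was below every second-block tag (log2 change -2.49 ± 0.27, adjusted p = 0.00224). Gpnmb, a glycoprotein of lipid-laden macrophages, had 60.9, 61.3 and 95.2 CPM in the third block, against 305.9, 269 and 241 CPM in the second block (log2 change -1.91 ± 0.18, adjusted p = 0.00141). The activin subunit gene Inhba averaged 26.5 ± 7.65 CPM in the third block and 78.7 ± 12.7 CPM in the second block (SD, n = 3 each; log2 change -1.57 ± 0.21, adjusted p = 0.00464). Itgax, the integrin CD11c, had a log2 change of -1.58 ± 0.11, adjusted p = 6.21e-04. Osteopontin gene Spp1, on the same list, averaged 1303 ± 576 CPM in the third block and 3480 ± 872 CPM in the second block (log2 change -1.42 ± 0.30, adjusted p = 0.0272).

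Lysosomal genes of phagocytes were lower too, and cholesterol genes split by role. Of 11 cathepsins and related lysosomal genes, 6 were lower and 0 higher (median log2 change -0.59). Ctss, a cathepsin that trims antigen in phagocytes, had 700.5, 692 and 825 CPM in the third block, against 2080, 2111 and 1904 CPM in the second block. No tag overlapped (log2 change -1.46 ± 0.076, adjusted p = 1.51e-04). Of 14 cholesterol genes 4 were higher and 4 lower. The exporters Abcg1 and Abca1 were lower, at log2 changes of -1.52 ± 0.14, adjusted p = 0.00121 and -1.09 ± 0.10, adjusted p = 0.00141. Sterol synthesis genes Sqle and Idi1 were higher, at 1.08 ± 0.13, adjusted p = 0.00372 and 1.10 ± 0.17, adjusted p = 0.00842. The macrophage growth factor receptor gene Csf1r averaged 111 ± 3.42 CPM in the third block and 207 ± 12.8 CPM in the second block (SD, n = 3 each; log2 change -0.90 ± 0.078, adjusted p = 0.00119). Chemokine gene Ccl9 and the interleukin-6 family cytokine gene Osm, both made by myeloid cells, had log2 changes of -1.19 ± 0.087, adjusted p = 6.23e-04 and -1.51 ± 0.094, adjusted p = 2.89e-04. The part of cell numbers in these sums was not tested. With 1 tag left out at a time, Mmp12, Gpnmb, Inhba, Itgax, Ctss, Abcg1, Abca1, Sqle, Idi1, Csf1r, Ccl9 and Osm passed in all 6 fits. Spp1 missed the threshold without A0304, A0305, A0307 or A0308 (adjusted p = 0.0687 to 0.0993). The Sqle call was lost at 5000 reads per cell (log2 change 0.69, adjusted p = 0.0886).

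T cell genes and genes that interferon gamma induces were lower in the third block as well. Of 15 T cell genes 8 were lower and 0 higher, and of 16 interferon gamma genes 7 were lower and 0 higher (median log2 changes -1.29 and -0.82). Il7r, the interleukin-7 receptor of T cells, had 25.0, 23.3 and 22.4 CPM in the third block, against 69.4, 64.9 and 78.9 CPM in the second block. The blocks did not overlap (log2 change -1.59 ± 0.11, adjusted p = 5.38e-04). Cxcl9, a chemokine that draws T cells, had 5.68, 11.3 and 4.56 CPM in the third block, against 127, 58.8 and 54.6 CPM in the second block (log2 change -3.48 ± 0.44, adjusted p = 0.00396). Cxcl9 was read in only 2.20% of third-block cells and 4.73% of second-block cells, and a single cell held up to 58.4% of its reads in 1 tag of the third block and 35.6% in 1 tag of the second block. Interferon gamma itself, Ifng, had 1.03, 1.83 and 1.72 CPM in the third block, against 6.79, 4.34 and 3.87 CPM in the second block. The low Ifng levels passed narrowly (log2 change -1.71 ± 0.38, adjusted p = 0.0339). The guanylate-binding proteins Gbp5 and Gbp6 had log2 changes of -1.36 ± 0.18, adjusted p = 0.00450 and -1.28 ± 0.12, adjusted p = 0.00121. Ctla4 and Ikzf2, which regulatory T cells express, had log2 changes of -1.90 ± 0.37, adjusted p = 0.0204 and -1.38 ± 0.21, adjusted p = 0.00842. In fits that left out 1 tag each, Il7r, Cxcl9, Gbp5, Gbp6 and Ikzf2 passed in all 6. Ifng missed the threshold without any 1 of the 6 tags (adjusted p = 0.0641 to 0.131). Ctla4 missed the threshold without A0304, A0306 or A0307 (adjusted p = 0.0659 to 0.0786).

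Antigen presentation genes fell to lower levels in the third block for both classes of MHC molecule. Of 13 MHC class I genes 10 were lower, and of 11 MHC class II genes 6, with none higher in either list. B2m, the invariant chain of class I molecules, had 3930, 3809 and 3851 CPM in the third block, against 7540, 7248 and 7429 CPM in the second block. The tags differed little within a block and the ranges of the blocks lay far apart (log2 change -0.94 ± 0.028, adjusted p = 5.34e-06). It was read in 96.3% of third-block cells and 98.4% of second-block cells. The peptide transporter gene Tap1 averaged 44.5 ± 1.61 CPM in the third block and 85.5 ± 9.62 CPM in the second block (SD, n = 3 each; log2 change -0.94 ± 0.11, adjusted p = 0.00270). Class II gene H2-Ab1 had 629.9, 666 and 510.1 CPM in the third block, against 1244, 1080 and 1372 CPM in the second block (log2 change -1.03 ± 0.11, adjusted p = 0.00246). H2-Eb1 and H2-DMa, which present and load class II peptides, had log2 changes of -1.08 ± 0.14, adjusted p = 0.00400 and -1.07 ± 0.12, adjusted p = 0.00224. When each tag was left out in turn, B2m, Tap1, H2-Ab1, H2-Eb1 and H2-DMa passed every time.

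Genes induced by type I interferon, the antiviral alarm of most cells, were lower by the same measure. Of 20 such genes 13 were lower and 0 higher (median log2 change -0.94). Oas1a, an enzyme that senses double-stranded RNA, had 19.5, 23.1 and 31.8 CPM in the third block, against 81.9, 65.3 and 72.8 CPM in the second block (log2 change -1.56 ± 0.18, adjusted p = 0.00313). Irf7, the transcription factor that amplifies the response, had 71.9, 51.2 and 66.9 CPM in the third block, against 170, 123 and 175 CPM in the second block (log2 change -1.30 ± 0.17, adjusted p = 0.00457). Neither gene overlapped between blocks. Ifi44 had a log2 change of -1.44 ± 0.17, adjusted p = 0.00313. Bst2, Isg15 and Rsad2 had log2 changes of -0.94 ± 0.088, adjusted p = 0.00133, -0.95 ± 0.18, adjusted p = 0.0184 and -0.83 ± 0.16, adjusted p = 0.0233. The calls for Oas1a, Irf7, Ifi44 and Bst2 held in all 6 fits without 1 tag. Isg15 missed the threshold without A0304, A0306 or A0308 (adjusted p = 0.0709 to 0.0721). Rsad2 missed the threshold without A0304, A0306, A0307 or A0308 (adjusted p = 0.0728 to 0.0885). The Rsad2 call was lost with all 9 WT tags in the fit (log2 change -0.83, adjusted p = 0.0508).

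Promoter windows of 3 members are shown because the same letters recur in them. Each window runs from 250 bases before to 50 after the gene's start on the gene's strand, from RefSeq on GRCm38.p6: Isg15 at chr4:156200769-156201068 (minus strand), Bst2 at chr8:71537423-71537722 (minus strand) and Rsad2 at chr12:26456403-26456702 (minus strand). Capitals mark the interferon-stimulated response element, written as GAAA, any 2 bases and GAAA again, searched on both strands with overlapping matches joined.
Isg15: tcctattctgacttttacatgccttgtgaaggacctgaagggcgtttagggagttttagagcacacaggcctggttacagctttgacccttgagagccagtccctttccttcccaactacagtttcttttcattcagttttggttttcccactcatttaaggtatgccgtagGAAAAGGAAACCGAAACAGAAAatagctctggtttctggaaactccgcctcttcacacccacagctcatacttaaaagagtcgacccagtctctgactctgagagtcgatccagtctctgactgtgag
Bst2: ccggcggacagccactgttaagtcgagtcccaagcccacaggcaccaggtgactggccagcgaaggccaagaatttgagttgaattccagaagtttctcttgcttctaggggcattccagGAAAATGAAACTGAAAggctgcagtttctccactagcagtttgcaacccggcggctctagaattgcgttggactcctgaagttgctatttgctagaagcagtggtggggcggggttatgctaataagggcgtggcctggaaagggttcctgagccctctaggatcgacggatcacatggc
Rsad2: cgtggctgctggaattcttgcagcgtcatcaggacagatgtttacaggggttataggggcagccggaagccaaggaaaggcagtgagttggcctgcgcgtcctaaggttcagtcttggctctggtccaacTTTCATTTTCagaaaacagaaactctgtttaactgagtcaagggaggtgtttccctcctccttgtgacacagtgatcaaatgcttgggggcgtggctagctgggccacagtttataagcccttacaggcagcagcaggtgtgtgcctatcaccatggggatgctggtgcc
The letters were in 6 of the 9 windows found for the 13 lower genes, in 2 of the 5 windows found for the 7 genes of the list that did not pass, and in 3.49% of all 27025 windows. A match is a run of letters and not evidence of binding.

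Several epithelial and endothelial genes were higher in the third block, but not all. Of 12 genes of injured alveolar epithelium 7 were higher and 1 lower, and of 8 alveolar type 1 genes 5 were higher and 0 lower. Krt8, the keratin of alveolar cells in transition, had 121, 174 and 77.0 CPM in the third block, against 39.6, 42.4 and 55.0 CPM in the second block (log2 change 1.44 ± 0.27, adjusted p = 0.0187). Krt7 had 147, 197 and 78.5 CPM in the third block, against 34.6, 46.0 and 48.9 CPM in the second block (log2 change 1.71 ± 0.30, adjusted p = 0.0148). In both keratins A0308 was the highest tag and A0309 the lowest of the third block, still above the second block. Igfbp2, which marks alveolar type 1 cells, had 18.3, 22.9 and 16.4 CPM in the third block, against 5.04, 6.98 and 4.19 CPM in the second block (log2 change 1.83 ± 0.24, adjusted p = 0.00456). Col4a3, a basement membrane collagen of the alveolar wall, had a log2 change of 1.61 ± 0.23, adjusted p = 0.00613. Igfbp2 and Col4a3 passed whichever tag was left out. Krt8 missed the threshold without A0304, A0305, A0306 or A0307 (adjusted p = 0.0518 to 0.0815). Krt7 missed the threshold without A0304, A0305 or A0306 (adjusted p = 0.0565 to 0.0689).

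Among endothelial genes, 5 of 7 tested activation genes were higher and 0 lower (median log2 change 0.65). Genes of the general capillary panel went both ways: Aplnr passed as lower and Gpihbp1 as higher. Over the alternatives run, their log2 changes were -1.52 to -0.75 and 0.56 to 0.84. Aplnr missed the threshold in 5 of the fits without 1 tag, and Gpihbp1 in 3. Icam1, an adhesion molecule that leukocytes bind, had 243, 268 and 246 CPM in the third block, against 154, 168 and 173 CPM in the second block (log2 change 0.61 ± 0.078, adjusted p = 0.00408). Sele, which captures rolling neutrophils, had 20.4, 25.5 and 19.7 CPM in the third block, against 7.65, 9.74 and 11.96 CPM in the second block (log2 change 1.16 ± 0.20, adjusted p = 0.0147). Both were higher in every third-block tag. Lyve1, a hyaluronan receptor found on lymphatic and some blood vessel cells, averaged 399.6 ± 32.0 CPM in the third block and 142 ± 27.2 CPM in the second block (SD, n = 3 each; log2 change 1.49 ± 0.13, adjusted p = 0.00121). The vascular growth factors Vegfc and Vegfd had log2 changes of 0.96 ± 0.12, adjusted p = 0.00334 and 1.31 ± 0.14, adjusted p = 0.00244. With 1 tag left out at a time, Icam1, Lyve1, Vegfc and Vegfd passed in all 6 fits. Sele missed the threshold without A0304, A0305 or A0308 (adjusted p = 0.0511 to 0.0607). The Sele call was lost at 5000 reads per cell (log2 change 0.69, adjusted p = 0.253).

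Of 13 neutrophil genes 2 were higher, Mmp9 and Retnlg, and 0 lower (median log2 change 0.72). Mmp9, a gelatinase stored in neutrophils, had 17.7, 27.2 and 26.9 CPM in the third block, against 6.76, 7.48 and 8.28 CPM in the second block (log2 change 1.68 ± 0.21, adjusted p = 0.00340). S100a8, a calprotectin subunit, had 439, 1216 and 1034 CPM in the third block, against 341, 397 and 422 CPM in the second block. Tag A0307 was near the second block, and S100a8 did not pass (log2 change 1.21 ± 0.31, adjusted p = 0.0569), although it did with DESeq2 (adjusted p = 0.0148) and under 3 of the other settings. S100a8 also passed without A0307 (log2 change 1.54, edgeR adjusted p = 0.0026), but not when any other tag was left out. Interleukin-6 gene Il6 had 251, 282 and 402 CPM in the third block, against 148, 156 and 139.7 CPM in the second block (log2 change 1.07 ± 0.16, adjusted p = 0.00793). Lcn2, an iron-binding acute phase protein, averaged 1134 ± 114 CPM in the third block and 629.7 ± 95.6 CPM in the second block (SD, n = 3 each; log2 change 0.85 ± 0.11, adjusted p = 0.00496). In fits that left out 1 tag each, Mmp9, Il6 and Lcn2 passed in all 6. Retnlg missed the threshold without A0304, A0305, A0306, A0308 or A0309 (adjusted p = 0.1002 to 0.140). The Retnlg call was lost without the low-count filter (log2 change 1.51, adjusted p = 0.0622) and without Scrublet doublets (log2 change 1.53, adjusted p = 0.0553).

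Of 11 airway epithelial genes 2 were higher, Scgb1a1 and Foxj1, and 0 lower (median log2 change 1.66). Scgb1a1, the club cell secretory protein, had 8161, 11010 and 11430 CPM in the third block, against 928, 4317 and 2353 CPM in the second block (log2 change 2.01 ± 0.45, adjusted p = 0.0364). It was read in 71.8% of third-block cells and 78.3% of second-block cells, far more than the club cells counted above, and a single cell held up to 26.4% of its reads in 1 tag of the third block and 43.2% in 1 tag of the second block. Retnla, a resistin-like protein of alternative activation and airway epithelium, had 969, 1288 and 1471 CPM in the third block, against 155, 578 and 303.7 CPM in the second block (log2 change 1.85 ± 0.40, adjusted p = 0.0328), and a single cell held up to 28.7% of its reads in 1 tag of the third block and 51.0% in 1 tag of the second block. Cxcl13, a chemokine that draws B cells, had 117, 224 and 66.0 CPM in the third block, against 34.6, 42.9 and 32.3 CPM in the second block (log2 change 1.89 ± 0.38, adjusted p = 0.0239), and a single cell held up to 62.0% of its reads in 1 tag of the third block and 32.6% in 1 tag of the second block. Scgb1a1, Retnla and Cxcl13 did not overlap between blocks. Scgb1a1 missed the threshold without A0306, A0307, A0308 or A0309 (adjusted p = 0.0708 to 0.135). Foxj1 missed the threshold without A0304, A0305, A0307 or A0308 (adjusted p = 0.0928 to 0.107). Retnla missed the threshold without A0306, A0307, A0308 or A0309 (adjusted p = 0.0614 to 0.130). Cxcl13 missed the threshold without A0304, A0305, A0306 or A0307 (adjusted p = 0.0555 to 0.101). The Scgb1a1 call was lost under a stricter cell filter (log2 change 1.98, adjusted p = 0.0503). The Foxj1 call was lost under a stricter cell filter (log2 change 1.30, adjusted p = 0.112), with every tagged cell (log2 change 0.86, adjusted p = 0.0925) and at 5000 reads per cell (log2 change 0.75, adjusted p = 0.227). The Retnla call was lost under a stricter cell filter (log2 change 1.77, adjusted p = 0.0605). The Cxcl13 call was lost at 5000 reads per cell (log2 change 1.07, adjusted p = 0.142).

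**Figure D2:**
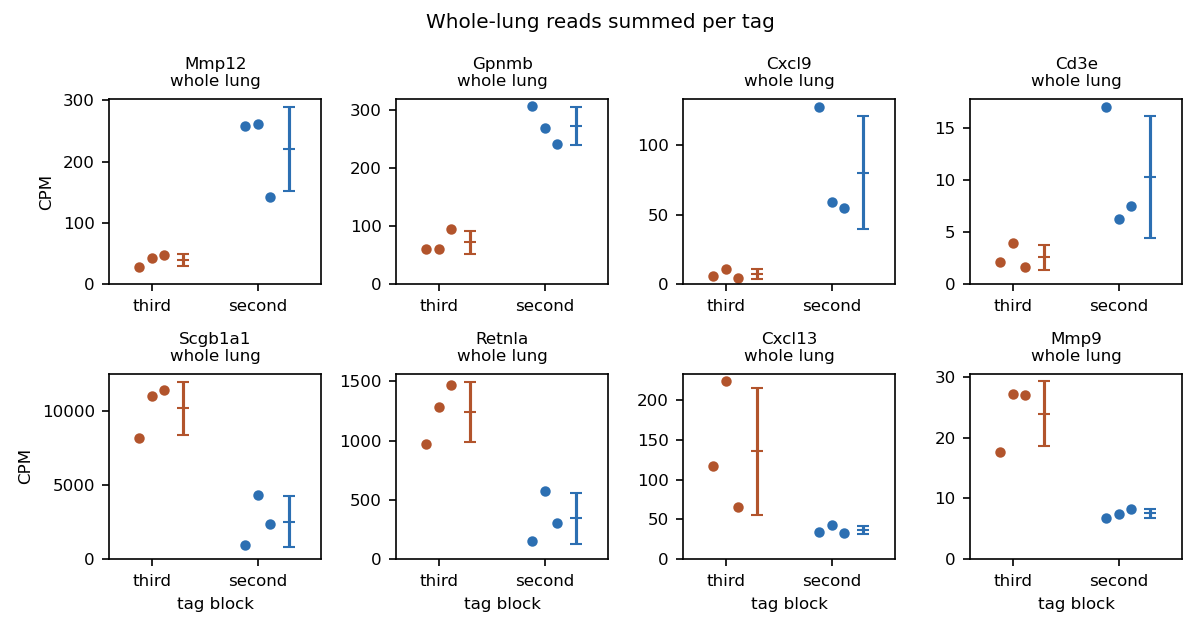
CPM of 8 genes in reads summed over all kept cells, for each of the 3 tags of the third block and the 3 of the second block. Bars give the mean and SD of the tags. Mmp12, Gpnmb, Cxcl9 and Cd3e lie lower in the third block, while Scgb1a1, Retnla, Cxcl13 and Mmp9 lie higher, with a wide spread for Cxcl13. Cd3e, a T cell gene, missed the threshold without any 1 of the 6 tags (edgeR adjusted p = 0.05315 to 0.1355). Its call was also lost without the low-count filter (0.0522) and under a stricter cell filter (0.0537).

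Stromal genes split. Of 26 interstitial matrix genes 3 were lower, Col1a1, Col1a2 and Fn1, and 1 higher, Lox (median log2 change -0.11). Col1a1, a chain of type I collagen, had 764, 676 and 698 CPM in the third block, against 1284, 1044 and 1117 CPM in the second block (log2 change -0.69 ± 0.082, adjusted p = 0.00329). Fmod, fibromodulin, which binds collagen fibrils, had 7.97, 7.97 and 9.47 CPM in the third block, against 42.0, 45.6 and 39.0 CPM in the second block (log2 change -2.32 ± 0.14, adjusted p = 2.71e-04). Nrep, a neuronal regeneration related protein also expressed by fibroblasts, had 114, 102 and 105 CPM in the third block, against 359.8, 396 and 384 CPM in the second block (log2 change -1.83 ± 0.076, adjusted p = 4.70e-05). Grem1, a BMP antagonist, and Ltbp2, a matrix protein of the TGF-beta binding family, had log2 changes of -2.59 ± 0.24, adjusted p = 0.00121 and -1.68 ± 0.15, adjusted p = 0.00121. All of these were below the second block in every third-block tag. In the other direction, Inmt, a methyltransferase of lung fibroblasts, had 1112, 746 and 936 CPM in the third block, against 277, 265 and 293 CPM in the second block (log2 change 1.74 ± 0.13, adjusted p = 6.23e-04). Gsta3, a glutathione transferase, and Mmp3, stromelysin, had log2 changes of 2.33 ± 0.25, adjusted p = 0.00199 and 1.47 ± 0.090, adjusted p = 2.89e-04. When each tag was left out in turn, Col1a1, Fmod, Nrep, Grem1, Ltbp2, Inmt, Gsta3 and Mmp3 passed every time. Lox missed the threshold without any 1 of the 6 tags (adjusted p = 0.0500 to 0.122). The Lox call was lost at 5000 reads per cell (log2 change 0.30, adjusted p = 0.209).

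Reads were also summed per tag over cells positive for 1 panel and for no other lineage. A class can hold subtypes whose shares differ between blocks. Panel genes of a lineage chose its cells and are not results within it. In 6 classes every tag had at least 20 cells. The Mmp12 Gpnmb macrophage and T cell classes fell short of that in the third block and were tested with at least 5 cells per tag. Counts of calls over all genes, here and for each class below, still include panel genes, such as Chil3 in mononuclear phagocytes. Of 382 genes called in at least 1 of the 8 classes, 33 were called in 2 or more and 8 in 3 or more. Of the 33, 7 were higher in some classes and lower in others. B2m was lower in 5 classes, and Bst2 and H2-K1 were lower and S100a6 higher in 4.

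B2m was lower within 5 of the 8 classes. Of the class I genes tested, 4 of 12 in alveolar type 2 cells, 4 of 12 in fibroblasts, 3 of 12 in alveolar macrophages, 3 of 13 in endothelium, 1 of 12 in classical monocytes, 0 of 12 in neutrophils, 0 of 12 in T cells and 0 of 12 in Mmp12 Gpnmb macrophages were lower, and none was higher. The log2 change of B2m was -2.13 ± 0.13 in alveolar type 2 cells, -1.44 ± 0.18 in alveolar macrophages, -1.22 ± 0.072 in fibroblasts, -0.87 ± 0.073 in classical monocytes and -0.56 ± 0.055 in endothelium, all past the threshold. In neutrophils it was -0.53 ± 0.17 and did not pass (adjusted p = 0.817). Bst2, tetherin, which holds viruses to the cell surface, was lower in classical monocytes (-1.31 ± 0.18), alveolar type 2 cells (-1.87 ± 0.21), endothelium (-0.81 ± 0.092) and fibroblasts (-1.22 ± 0.13). S100a6, a calcium-binding protein, was higher in alveolar type 2 cells (1.72 ± 0.26), endothelium (0.96 ± 0.16), classical monocytes (0.65 ± 0.088) and fibroblasts (0.53 ± 0.093). Of the 6 fits without 1 tag, B2m passed 6 in alveolar type 2 cells, fibroblasts, classical monocytes and endothelium, 5 in alveolar macrophages. Of the 6 fits without 1 tag, Bst2 passed 6 in endothelium and fibroblasts, 5 in alveolar type 2 cells, 0 in classical monocytes. Of the 6 fits without 1 tag, S100a6 passed 1 in alveolar type 2 cells, endothelium and fibroblasts, 0 in classical monocytes. The S100a6 call in alveolar type 2 cells was lost with all 9 WT tags in the fit (log2 change 1.72, adjusted p = 0.0842) and at 5000 reads per cell (log2 change 0.90, adjusted p = 0.172). The S100a6 call in endothelium was lost with all 9 WT tags in the fit (log2 change 0.96, adjusted p = 0.16). Whether the changes differ between classes was not tested.

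**Figure D3:**
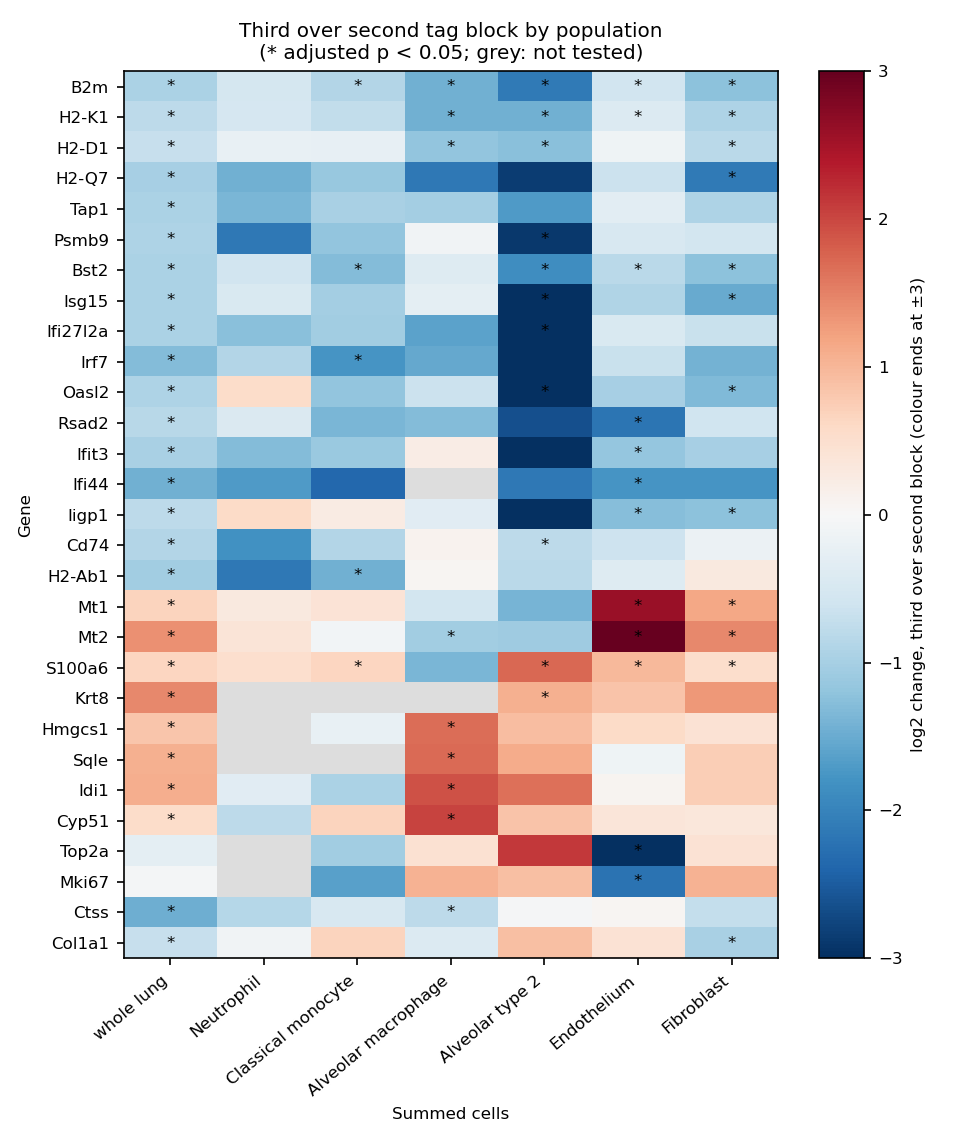
Log2 change, the third over the second block, of 29 genes in whole lung and in 6 marker-positive classes. Colour runs from blue for lower to red for higher in the third block and ends at 3 each way, an asterisk marks an adjusted p under 0.05 and grey marks genes not tested. B2m is blue in every column, while Mt1 and Mt2 are red in endothelium and fibroblasts and blue in alveolar macrophages.

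Fibroblasts of the third block had lower collagen and matrix levels and higher metallothionein. Of 13636 genes, 52 were higher (0.381%) and 115 lower (0.843%), in 646 third-block and 617 second-block cells. The class includes activated fibroblasts, which made up 2.96% of all cells in the third block and 7.77% in the second block, and the part of that share in the levels was not tested. Of 26 matrix genes 5 are panel genes of the lineage, and of the others 8 were lower and 0 higher (median log2 change -0.40 against 0.0055 for all genes). Col1a1 had 2339, 2497 and 2239 CPM in the third block, against 4856, 4235 and 4834 CPM in the second block. Col1a2, the partner chain, had 3233, 3252 and 3063 CPM in the third block, against 5634, 5303 and 6150 CPM in the second block. For both chains the third block lay wholly below the second (log2 changes -0.98 ± 0.075, adjusted p = 4.04e-04 and -0.84 ± 0.068, adjusted p = 4.04e-04). Lox, which cross-links collagen and was higher in whole lung, averaged 931 ± 69.2 CPM in the third block and 904 ± 55.1 CPM in the second block in fibroblasts (SD, n = 3 each) and did not pass (log2 change 0.043 ± 0.093, adjusted p = 0.926).

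Spp1 in fibroblasts had 356, 659 and 152 CPM in the third block, against 3864, 2816 and 2087 CPM in the second block. The highest third-block tag was well below the lowest second-block tag (log2 change -2.91 ± 0.43, adjusted p = 0.0109). The part of free RNA in these reads was not tested. Among classes of other lineages, Spp1 averaged 835 CPM in the third block and 561 CPM in the second block in neutrophils, 56.6 CPM in the third block and 535 CPM in the second block in T cells, 58.9 CPM in the third block and 38.1 CPM in the second block in alveolar type 2 cells, and 156 CPM in the third block and 111 CPM in the second block in endothelium. None of these 4 passed, although T cells did with DESeq2 (adjusted p = 0.0347) and without the low-count filter (0.00412). In classical monocytes, where Spp1 is a panel gene of the lineage, it averaged 1280 CPM in the third block and 3054 CPM in the second block. Fmod had 28.1, 32.8 and 22.5 CPM in the third block, against 169.8, 206 and 139.8 CPM in the second block (log2 change -2.63 ± 0.22, adjusted p = 5.32e-04). Nrep had 248, 243 and 177 CPM in the third block, against 1114, 1406 and 1396 CPM in the second block (log2 change -2.55 ± 0.15, adjusted p = 4.96e-05). Both genes separated the blocks without overlap, as in whole lung. The insulin-like growth factor gene Igf1 and the growth factor binding gene Igfbp3 were lower, at log2 changes of -0.97 ± 0.15, adjusted p = 0.0124 and -1.97 ± 0.21, adjusted p = 0.00216, as were the membrane metalloproteinase gene Mmp14 at -1.06 ± 0.10, adjusted p = 0.00104 and the acute phase gene Saa3 at -1.15 ± 0.15, adjusted p = 0.00531. Collagenase gene Mmp13 had 0.0851, 0 and 0.0835 CPM in the third block, against 36.1, 13.1 and 2.48 CPM in the second block, too few reads in the third block for a fold.

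Interferon genes were lower within fibroblasts too: 4 of 20 type I genes, 3 of 13 interferon gamma genes and 4 of 12 class I genes, with none higher. On the rising side, Mt2, a metallothionein that binds zinc and other metals, had 3449, 5491 and 5148 CPM in the third block, against 1951, 1462 and 1809 CPM in the second block (log2 change 1.43 ± 0.16, adjusted p = 0.00260). Inmt had 4223, 2636 and 3489 CPM in the third block, against 1124, 1333 and 1549 CPM in the second block (log2 change 1.37 ± 0.16, adjusted p = 0.00357). No tag of either gene overlapped. Gsta3 and Ch25h, the cholesterol 25-hydroxylase, had log2 changes of 2.11 ± 0.30, adjusted p = 0.00767 and 1.56 ± 0.24, adjusted p = 0.0122. The calls for Col1a1, Col1a2, Fmod, Nrep, Mmp14, Saa3, Igfbp3, Mt2 and Inmt held in all 6 fits without 1 tag. Spp1 missed the threshold without A0307 (adjusted p = 0.0775). Igf1 missed the threshold without A0306, A0307 or A0309 (adjusted p = 0.0587 to 0.0732). Gsta3 missed the threshold without A0306 or A0309 (adjusted p = 0.0587 to 0.0618). Ch25h missed the threshold without A0305, A0307 or A0308 (adjusted p = 0.0545 to 0.0674).

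**Figure D4:**
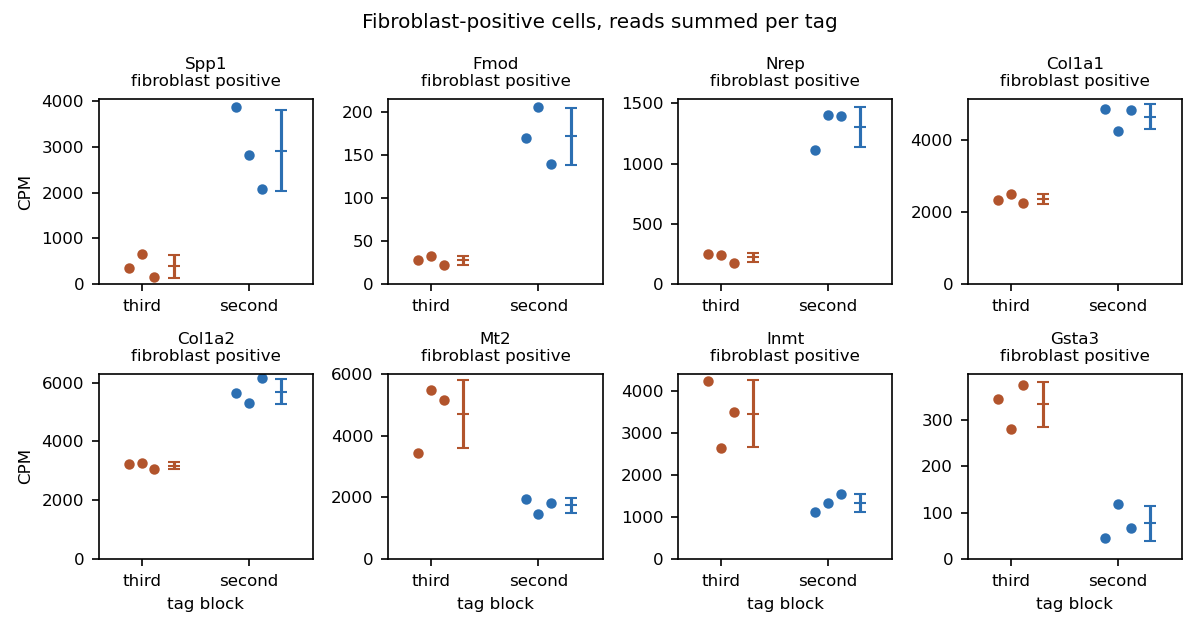
CPM of 8 genes in fibroblast-positive cells, reads summed per tag, for the 3 tags of the third block and the 3 of the second block. Bars give the mean and SD of the tags. Spp1, Fmod, Nrep, Col1a1 and Col1a2 lie lower in the third block, and Mt2, Inmt and Gsta3 higher, without overlap.

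Alveolar type 2 cells, which make surfactant and renew the alveolar epithelium, had higher Krt7, Krt8 and Krt19 and lower interferon genes in the third block. Of 11426 genes, 10 were higher (0.0875%) and 19 lower (0.166%), in 313 third-block and 250 second-block cells. Krt19 had 486, 356 and 257 CPM in the third block, against 104, 71.1 and 116 CPM in the second block. Krt7 had 781, 636 and 449.9 CPM in the third block, against 202, 162 and 232 CPM in the second block. Both keratins were above the second block in each third-block tag (log2 changes 1.91 ± 0.28, adjusted p = 0.0144 and 1.65 ± 0.23, adjusted p = 0.0129). Krt8 averaged 688 ± 73.5 CPM in the third block and 327 ± 23.8 CPM in the second block (SD, n = 3 each; log2 change 1.07 ± 0.15, adjusted p = 0.0137). S100a10, the annexin partner, had 655, 795 and 772 CPM in the third block, against 208, 198 and 200 CPM in the second block (log2 change 1.88 ± 0.15, adjusted p = 4.56e-04). Of 12 genes of injured epithelium 3 were higher and 0 lower. Cells that passed both alveolar panels are in this class, and their part was not tested.

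Interferon genes were lower in alveolar type 2 cells. Ifi27l2a, an interferon-induced gene, had 38.0, 74.2 and 55.6 CPM in the third block, against 918, 592 and 1035 CPM in the second block (log2 change -3.92 ± 0.29, adjusted p = 2.61e-04). Isg15, a ubiquitin-like modifier whose promoter is printed with the interferon genes, had 9.50, 15.5 and 13.6 CPM in the third block, against 285, 66.7 and 238 CPM in the second block (log2 change -3.93 ± 0.50, adjusted p = 0.0104). Third-block levels were low and even, whereas A0305 was the lowest of a spread second block for both genes. B2m had 798, 912 and 867 CPM in the third block, against 3936, 3117 and 4223 CPM in the second block (log2 change -2.13 ± 0.13, adjusted p = 6.32e-05). Of 18 type I interferon genes 4 were lower and of 12 class I genes 4, with none higher (median log2 changes -3.30 and -1.0 against -0.0047 for all genes). Scd1, the fatty acid desaturase used for surfactant lipid, had 4544, 3008 and 3689 CPM in the third block, against 8892, 8371 and 8548 CPM in the second block (log2 change -1.20 ± 0.13, adjusted p = 0.00358). Ifi27l2a, B2m, S100a10 and Scd1 passed whichever tag was left out. Krt8 missed the threshold without any 1 of the 6 tags (adjusted p = 0.0500 to 0.1002). Krt19 missed the threshold without A0304, A0305, A0306, A0307 or A0308 (adjusted p = 0.0717 to 0.1002). Krt7 missed the threshold without A0304, A0305, A0306, A0307 or A0308 (adjusted p = 0.0643 to 0.0971). Isg15 missed the threshold without A0306, A0307, A0308 or A0309 (adjusted p = 0.0643 to 0.0882). The Krt8 call was lost at 5000 reads per cell (log2 change 0.31, adjusted p = 0.730). The Krt19 call was lost with all 9 WT tags in the fit (log2 change 1.91, adjusted p = 0.0618) and at 5000 reads per cell (log2 change 1.18, adjusted p = 0.172). The Krt7 call was lost at 5000 reads per cell (log2 change 0.65, adjusted p = 0.389).

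Alveolar macrophages of the third block had higher sterol synthesis genes and lower Cxcl2 and Il1b. Of 10723 genes, 26 were higher (0.242%) and 53 lower (0.494%), in 122 third-block and 254 second-block cells. Fdps, an enzyme of isoprenoid synthesis, had 303.4, 532 and 299.6 CPM in the third block, against 69.9, 71.3 and 66.1 CPM in the second block (log2 change 2.45 ± 0.26, adjusted p = 0.00524). Hmgcs1, an early enzyme of sterol synthesis, averaged 264 ± 48.8 CPM in the third block and 82.4 ± 9.61 CPM in the second block (SD, n = 3 each; log2 change 1.68 ± 0.23, adjusted p = 0.00957). Fdft1 and Cyp51, later steps to cholesterol, had log2 changes of 2.38 ± 0.29, adjusted p = 0.00613 and 2.02 ± 0.30, adjusted p = 0.0119. The blocks did not overlap for any of them. Of 14 cholesterol genes 4 were higher and 1 lower. The lower one was the exporter gene Abcg1, with 235, 104 and 174 CPM in the third block, against 824, 824 and 803 CPM in the second block (log2 change -2.26 ± 0.26, adjusted p = 0.00588).

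Hmgcs1 carries the sterol regulatory element TCACNCCAC (capitals) in its promoter window, chr13:119690101-119690400 on the plus strand of GRCm38.p6, from RefSeq.
Hmgcs1: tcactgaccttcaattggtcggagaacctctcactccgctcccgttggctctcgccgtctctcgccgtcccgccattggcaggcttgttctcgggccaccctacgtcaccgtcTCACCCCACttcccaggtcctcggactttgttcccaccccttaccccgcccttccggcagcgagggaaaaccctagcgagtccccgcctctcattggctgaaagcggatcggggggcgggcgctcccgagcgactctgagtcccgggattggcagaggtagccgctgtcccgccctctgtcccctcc
Those letters, searched on both strands, were in 1 of the 3 windows found for 6 higher sterol genes and in 1.22% of all windows.

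Of 4 neutrophil-attracting chemokine genes 2 were lower, of 13 interleukin-1 family and inflammasome genes 2, and of 6 other inflammatory chemokine genes 0, with none higher. The neutrophil-attracting chemokine gene Cxcl2 had 499, 330 and 347 CPM in the third block, against 2034, 2046 and 2346 CPM in the second block (log2 change -2.45 ± 0.17, adjusted p = 2.73e-04). Il1b, the inflammasome cytokine, had 134, 43.0 and 49.8 CPM in the third block, against 816, 775 and 590.4 CPM in the second block (log2 change -3.28 ± 0.40, adjusted p = 0.00613). Every third-block tag was below the second block for both. Of 17 immediate early genes, which tissue digestion also induces, 4 were lower and 0 higher (median log2 change -0.90 against -0.012 for all genes), and their part in the cytokine values was not tested. Cycling cells made up 25 of 122 cells in the third block and 22 of 254 in the second block. Mt2 had 305.5, 266 and 394 CPM in the third block, against 666, 659 and 676 CPM in the second block (log2 change -1.05 ± 0.17, adjusted p = 0.0207). With 1 tag left out at a time, Fdps, Fdft1, Abcg1, Cxcl2 and Il1b passed in all 6 fits. Hmgcs1 missed the threshold without A0305, A0306 or A0309 (adjusted p = 0.0582 to 0.0693). Cyp51 missed the threshold without A0305, A0308 or A0309 (adjusted p = 0.0579 to 0.0705). Mt2 missed the threshold without A0304, A0305, A0306 or A0308 (adjusted p = 0.0795 to 0.122). The Fdft1 call was lost with all 9 WT tags in the fit (log2 change 2.38, adjusted p = 0.0902). The Mt2 call was lost at 5000 reads per cell (log2 change -0.76, adjusted p = 0.0910).

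**Figure D5:**
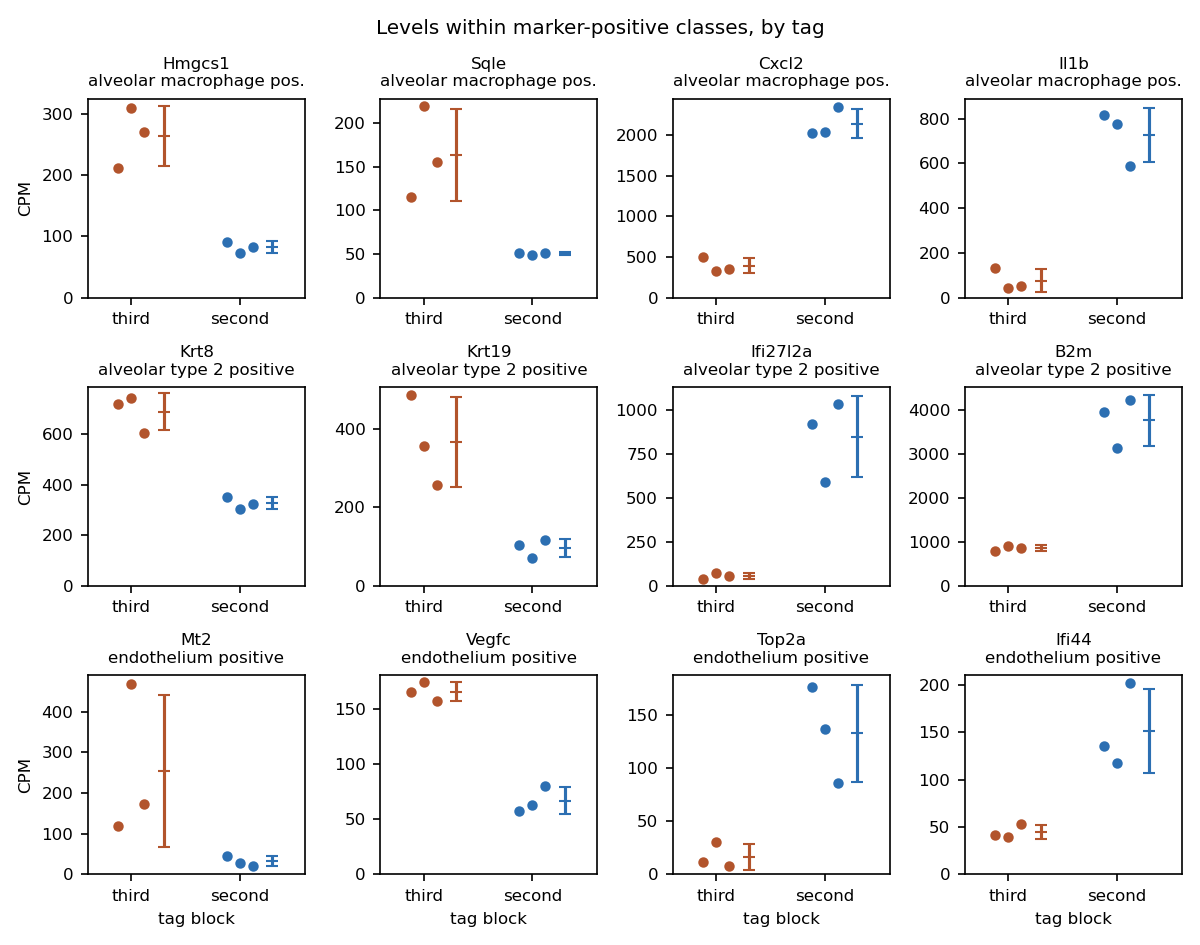
CPM of 4 genes each in cells positive for alveolar macrophage, alveolar type 2 and endothelium panels, for the 3 tags of the third block and the 3 of the second block. Bars give the mean and SD of the tags. Hmgcs1, Sqle, Krt8, Krt19, Mt2 and Vegfc lie higher in the third block, and Cxcl2, Il1b, Ifi27l2a, B2m, Top2a and Ifi44 lower.

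Endothelium of the third block had lower cell cycle genes and higher metallothionein. Of 13547 genes, 46 were higher (0.340%) and 79 lower (0.583%), in 1306 third-block and 1140 second-block cells. Of 18 cell cycle genes 8 were lower and 0 higher (median log2 change -2.35 against 0.0042 for all genes). Top2a, which untangles DNA in dividing cells, had 11.1, 30.4 and 7.46 CPM in the third block, against 177, 137 and 85.7 CPM in the second block (log2 change -3.02 ± 0.50, adjusted p = 0.0282). Mki67, the proliferation marker, had 19.9, 24.0 and 26.2 CPM in the third block, against 127, 129 and 71.8 CPM in the second block (log2 change -2.22 ± 0.27, adjusted p = 0.00717). Neither overlapped between blocks, and cells positive for the cycling panel were 10 of 1306 in the third block and 76 of 1140 in the second block. Over all lung cells, cycling cells averaged 3.20% ± 0.121 in the third block and 4.19% ± 0.575 in the second block (SD, n = 3 each) and did not pass (adjusted p = 0.0991). At 5000 reads per cell they did (log2 change -0.87, adjusted p = 0.00486). They also passed as lower at 1 read per positive gene (-0.41, adjusted p = 0.0363) and without cells of several lineages (-0.50, adjusted p = 0.0305).

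Mt2 in endothelium had 119, 468 and 174 CPM in the third block, against 45.5, 28.5 and 21.0 CPM in the second block (log2 change 3.00 ± 0.50, adjusted p = 0.0282). Mt1 had 150.4, 575 and 256 CPM in the third block, against 68.8, 52.3 and 42.6 CPM in the second block (log2 change 2.58 ± 0.43, adjusted p = 0.0283). Tag A0308 was the highest for both metallothioneins, and all third-block tags were above the second block. Ptgs1, cyclooxygenase 1, had 99.2, 112 and 102 CPM in the third block, against 18.5, 17.1 and 29.4 CPM in the second block (log2 change 2.27 ± 0.26, adjusted p = 0.00602). Vegfc and Lyve1 were higher within endothelium, at log2 changes of 1.31 ± 0.17, adjusted p = 0.0103 and 1.18 ± 0.083, adjusted p = 5.22e-04, as in whole lung. Col4a1, a basement membrane collagen, had 943, 942 and 883 CPM in the third block, against 1664, 1760 and 1702 CPM in the second block (log2 change -0.89 ± 0.065, adjusted p = 5.22e-04). Ifi44 and Rsad2, interferon-induced genes, were lower, at log2 changes of -1.77 ± 0.24, adjusted p = 0.0109 and -2.20 ± 0.42, adjusted p = 0.0485. In fits that left out 1 tag each, Ptgs1, Lyve1 and Col4a1 passed in all 6. Top2a missed the threshold without A0304, A0305, A0306, A0307 or A0309 (adjusted p = 0.0660 to 0.123). Mki67 missed the threshold without A0305 (adjusted p = 0.0542). Vegfc missed the threshold without A0304, A0305 or A0308 (adjusted p = 0.0512 to 0.0749). Mt1 missed the threshold without A0304, A0305, A0306 or A0309 (adjusted p = 0.0628 to 0.180). Mt2 missed the threshold without A0304, A0305, A0306 or A0309 (adjusted p = 0.0527 to 0.178). Ifi44 missed the threshold without A0306, A0307 or A0308 (adjusted p = 0.0580 to 0.0650). Rsad2 missed the threshold without any 1 of the 6 tags (adjusted p = 0.0783 to 0.212). The Rsad2 call was lost with RLE in place of TMM factors (log2 change -2.19, adjusted p = 0.0516).

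The metallothionein promoters are shown because both genes were higher in fibroblasts and endothelium: Mt1 at chr8:94178839-94179138 and Mt2 at chr8:94172368-94172667, both on the plus strand of GRCm38.p6, from RefSeq. Capitals mark the metal response element core, TGCACNC or TGCGCNC, on either strand.
Mt1: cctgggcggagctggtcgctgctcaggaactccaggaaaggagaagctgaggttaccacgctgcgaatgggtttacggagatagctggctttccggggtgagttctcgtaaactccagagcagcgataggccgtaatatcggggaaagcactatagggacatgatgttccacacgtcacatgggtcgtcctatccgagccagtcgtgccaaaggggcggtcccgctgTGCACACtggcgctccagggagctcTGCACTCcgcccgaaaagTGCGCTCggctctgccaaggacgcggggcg
Mt2: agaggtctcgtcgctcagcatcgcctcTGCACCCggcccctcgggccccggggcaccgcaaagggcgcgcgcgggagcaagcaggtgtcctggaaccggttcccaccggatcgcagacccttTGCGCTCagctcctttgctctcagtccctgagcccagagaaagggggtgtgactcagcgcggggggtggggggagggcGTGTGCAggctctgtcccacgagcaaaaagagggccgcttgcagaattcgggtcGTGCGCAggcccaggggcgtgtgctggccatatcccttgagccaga
The core was found in both windows and in 25.6% of all windows, so it is common.

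Classical monocytes, the precursors that CCR2 draws into tissue, had 15 higher (0.163%) and 10 lower (0.108%) of 9225 genes, in 218 third-block and 271 second-block cells. Mmp8, a collagenase, had 347, 492 and 655 CPM in the third block, against 85.7, 112 and 61.0 CPM in the second block (log2 change 2.53 ± 0.31, adjusted p = 0.0149). Thbs1, thrombospondin 1, which activates TGF-beta, had 4487, 4365 and 4733 CPM in the third block, against 2471, 1706 and 2208 CPM in the second block (log2 change 1.09 ± 0.13, adjusted p = 0.0124). Both were above the second block in every third-block tag. Of 691 classical monocyte positive cells of both blocks, 59 were also neutrophil positive and were left out of the class. The part of free RNA from neutrophils in the Mmp8 reads was not tested. Irf7 had 193, 146 and 161 CPM in the third block, against 623, 513 and 574 CPM in the second block (log2 change -1.77 ± 0.19, adjusted p = 0.00910). Class II gene H2-Ab1 had 1116, 580.4 and 632 CPM in the third block, against 2080, 2150 and 2120 CPM in the second block (log2 change -1.45 ± 0.22, adjusted p = 0.0356). Ass1, argininosuccinate synthase, had 32.8, 42.3 and 45.8 CPM in the third block, against 185, 212 and 220 CPM in the second block (log2 change -2.35 ± 0.29, adjusted p = 0.0151). When each tag was left out in turn, B2m passed every time. Mmp8 missed the threshold without A0304, A0306, A0308 or A0309 (adjusted p = 0.0551 to 0.0953). Thbs1 missed the threshold without A0306 or A0309 (adjusted p = 0.0676 to 0.0953). Irf7 missed the threshold without A0304, A0306 or A0309 (adjusted p = 0.0527 to 0.0816). H2-Ab1 missed the threshold without A0304, A0305, A0306, A0308 or A0309 (adjusted p = 0.131 to 0.201). Ass1 missed the threshold without A0304, A0305, A0306, A0308 or A0309 (adjusted p = 0.0551 to 0.129).

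Few genes passed in the remaining classes. In neutrophils 1 of 6391 genes was higher (0.0156%) and 0 were lower, in 398 third-block and 210 second-block cells, with 294 genes at an unadjusted p under 0.05 and 44 calls by DESeq2. That gene, Wfdc17, a secreted WAP-domain protein of myeloid cells, had 3058, 6509 and 5058 CPM in the third block, against 761, 409 and 279 CPM in the second block (log2 change 3.34 ± 0.40, adjusted p = 0.0279). In Mmp12 Gpnmb macrophages, with 39 third-block and 231 second-block cells, 2 of 8745 genes were higher (0.0229%) and 0 lower, with 789 at an unadjusted p under 0.05 and 203 calls by DESeq2. One of them, Hmgcs1, had 279, 243 and 238 CPM in the third block, against 21.4, 23.2 and 21.1 CPM in the second block (log2 change 3.53 ± 0.42, adjusted p = 0.0457), against a median of -0.14 over all genes. The other, Chil3, is a panel gene of the lineage. In T cells, with 58 third-block and 179 second-block cells, 0 of 6230 genes passed edgeR's test in either direction (0%), with 481 at an unadjusted p under 0.05 and 58 calls by DESeq2. Wfdc17 missed the threshold without A0305, A0306, A0307, A0308 or A0309 (adjusted p = 0.0577 to 0.228). Hmgcs1 missed the threshold without A0304, A0305, A0306, A0307 or A0309 (adjusted p = 0.0728 to 0.425). The Hmgcs1 call was lost at 5000 reads per cell (log2 change 3.45, adjusted p = 0.157).

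Several gene groups had few calls or none in whole lung. None of the 4 chemokine ligands of CCR2 passed: Ccl2 had 269.6, 269 and 283 CPM in the third block, against 343, 305.2 and 165 CPM in the second block, and Ccl7 averaged 141 ± 5.82 CPM in the third block and 112 ± 37.5 CPM in the second block (SD, n = 3 each; adjusted p = 0.983 and 0.446). None of 9 B cell genes passed, with Cd79a, part of the B cell receptor, at 44.0, 36.1 and 35.0 CPM in the third block, against 43.4, 41.9 and 90.2 CPM in the second block. Tag A0306 of the second block was high for Cd79a. None of 10 type 2 and type 17 lymphocyte genes, 5 red cell transcripts or 5 sex-linked transcripts passed. Arg1, arginase, had 41.5, 111 and 77.0 CPM in the third block, against 109, 116 and 106 CPM in the second block and did not pass (adjusted p = 0.359). Of 11 contractile myofibroblast genes, 2 were higher, Tagln and Myl9 (log2 changes 0.43 ± 0.083, adjusted p = 0.0212 and 0.42 ± 0.095, adjusted p = 0.0374), and 0 lower, with 10 of the log2 changes above 0. Tagln missed the threshold without A0304, A0305, A0306, A0307 or A0308 (adjusted p = 0.0614 to 0.0873). Myl9 missed the threshold without any 1 of the 6 tags (adjusted p = 0.0574 to 0.126). The Tagln call was lost with all 9 WT tags in the fit (log2 change 0.43, adjusted p = 0.154) and at 5000 reads per cell (log2 change 0.39, adjusted p = 0.139). The Myl9 call was lost with all 9 WT tags in the fit (log2 change 0.41, adjusted p = 0.224), under a stricter cell filter (log2 change 0.58, adjusted p = 0.0743) and at 5000 reads per cell (log2 change 0.40, adjusted p = 0.0775). Smooth muscle actin gene Acta2, a myofibroblast marker, averaged 389 ± 34.2 CPM in the third block and 312 ± 15.6 CPM in the second block (SD, n = 3 each) and missed the threshold (adjusted p = 0.0509). Its third-block tags lay above all second-block tags, and it passed with DESeq2 (adjusted p = 0.00385), with RLE factors (0.0479) and without Scrublet doublets (0.0452).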

How the data were processed

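The deposited values are counts per gene and cell in 1 WT table and 1 CCR2-/- table, which the authors deposited with no normalization. The submitters' processing notes name cutadapt 2.10, Bowtie2 2.4.2, R 3.6.3 and the build GRCm38, with no role or order. The values look like reads rather than molecules (the median nonzero entry is 9, and 22.29% equal 1) and are called reads here. No label says whether duplicates were collapsed. If they are reads, amplification adds spread, and errors from counting cover counting error only. Each column name carries a tag, and 680 WT columns named as doublets and 2 columns of other values were left out. Scrublet, at an expected rate of 0.06, marked 2.148% of kept WT cells, which stayed in.

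Whole-lung sums and class sums per tag were fitted with edgeR 4.0.16 (limma 3.58.1, R 4.3.3): filterByExpr, TMM, the quasi-likelihood test and Benjamini-Hochberg adjustment over all genes tested, with calls at 0.05. For marker shares, cells per tag went through the same test with kept cells as offset, without filterByExpr or TMM. Their p-values were adjusted over the panels with 30 or more positive cells, with calls at 0.05. A class needed 20 cells per tag, or 5 for T cells and Mmp12 Gpnmb macrophages, a minimum chosen after the data were seen. Mononuclear phagocytes went to the panel with the highest fraction of its genes read. DESeq2 1.42.0, RLE factors, no low-count filter, all 9 WT tags, 5000 reads per cell, other cell filters and leaving out each tag were alternatives. Other tools were scanpy 1.11.5, matplotlib 3.10.9, pandas 2.3.3, scipy 1.17.1, Python 3.11.15 and numpy 2.4.6. The test was checked on simulated counts: of 2-fold and 4-fold changes, 71% and 98% were recovered in whole lung, 17% and 62% in fibroblasts, 15% and 59% in endothelium, at most 2% and 37% in alveolar macrophages, classical monocytes and alveolar type 2 cells, 0% and 12% in neutrophils, 0% and 6% in T cells and 0% and 0% in Mmp12 Gpnmb macrophages. Only genes with a mean above 5 CPM were given a change, and the simulated spread was the one edgeR estimated from these same tags. The rates therefore hold only for such genes and for counts that follow the fitted model. Unchanged genes that were called numbered 14 in whole lung and at most 8 in a class.

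Genes were named by a rule: per direction the 12 largest changes in whole lung (mean of at least 20 CPM) and 6 in a class (at least 50 CPM) among calls without overlap, and up to 4 or 2 called members of each of 51 gene lists. Not all of these are given, and 1 is not reported here. Genes outside the rule were chosen after their values were seen: Bst2, Isg15, Rsad2, Spp1, S100a8, Sftpc, Arg1, Ccl2, Ccl7, Cd79a and Acta2 in whole lung, and in classes Hmgcs1 in alveolar macrophages, Krt8 in alveolar type 2 cells, Lox in fibroblasts and values of B2m, Bst2, S100a6 and Spp1 set beside others. The blocks, panels and lists were chosen with earlier results of these data known. Promoter windows are from RefSeq on GRCm38.p6, 250 bases before to 50 after the start.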

Additional observations from a re-analysis of the deposited data

How the results depend on the processing

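The labels give neither animal nor day of a tag, so differences between blocks cannot be told apart from differences between the tagged suspensions. With DESeq2 the count of called genes was 2590 in whole lung against 1296 with edgeR, and in the classes 44 in neutrophils, 189 in classical monocytes, 203 in Mmp12 Gpnmb macrophages, 416 in alveolar macrophages, 58 in T cells, 285 in alveolar type 2 cells, 577 in endothelium and 612 in fibroblasts. Without the low-count filter it was 24 in neutrophils, 115 in classical monocytes, 87 in Mmp12 Gpnmb macrophages, 195 in alveolar macrophages, 10 in T cells and 124 in alveolar type 2 cells. At 5000 reads per cell it was 3 in neutrophils, 67 in classical monocytes, 1 in Mmp12 Gpnmb macrophages, 201 in alveolar macrophages and 57 in alveolar type 2 cells. With all 9 WT tags it was 18 in Mmp12 Gpnmb macrophages and 184 in alveolar macrophages. The cause of these shifts was not tested. With 1 tag left out it ranged from 515 to 1015 in whole lung, from 51 to 108 in fibroblasts, from 24 to 55 in endothelium, from 24 to 126 in alveolar macrophages, from 7 to 23 in alveolar type 2 cells, from 2 to 19 in classical monocytes, from 0 to 15 in Mmp12 Gpnmb macrophages, from 0 to 1 in neutrophils and from 0 to 1 in T cells. The panels called by share ranged from 8 to 15 in those fits, against 17 with all 6 tags. The percent of calls that were higher was 60.0% in classical monocytes but 43.9% with DESeq2, 39.1% without the low-count filter, 38.8% at 5000 reads and 44.0% with 9 tags. In alveolar type 2 cells it was 34.5% but 49.1% with DESeq2, 49.2% without the filter and 20.0% with 9 tags. In alveolar macrophages it was 32.9% but 45.2% with DESeq2, and in fibroblasts 31.1% but 41.8%. At 5000 reads per cell, 3 whole-lung genes turned direction: Il1a at a log2 change of 0.24, Pf4 at -0.13 and Tnfaip2 at 0.057. The next counts are over genes named by the rule or in the text that passed with all tags. With 1 tag left out, the whole-lung call stood in 594 fits and was lost in 294. Under the other settings the call stood in 1113 fits, was lost in 68 with the direction kept and was lost with the direction turned in 3. In the classes it stood in 396 and was lost in 480 with 1 tag left out, and stood in 680 and was lost in 48 under the other settings. No paired analysis was possible because the tags of the 2 blocks share no replicate label.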

Other observations

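Other signalling groups changed in both directions in whole lung. Of 19 TGF-beta and activin genes 6 were higher and 2 lower. Tgfbr3, the co-receptor betaglycan, had 41.6, 44.6 and 42.4 CPM in the third block, against 21.5, 24.3 and 20.3 CPM in the second block (log2 change 0.96 ± 0.11, adjusted p = 0.00314). Of 15 metalloproteinases and their inhibitors 4 were higher and 5 lower, and Mmp11 had 4.43, 5.15 and 5.48 CPM in the third block, against 13.2, 10.5 and 14.9 CPM in the second block (log2 change -1.36 ± 0.21, adjusted p = 0.00929). Both genes separated the blocks without overlap. Tnfsf13b, the B cell survival factor BAFF, had 25.9, 28.1 and 32.6 CPM in the third block, against 14.2, 15.2 and 15.3 CPM in the second block (log2 change 0.95 ± 0.14, adjusted p = 0.00655), and C3ar1, the receptor of complement C3a, averaged 29.9 ± 4.26 CPM in the third block and 59.2 ± 3.82 CPM in the second block (SD, n = 3 each; log2 change -0.98 ± 0.13, adjusted p = 0.00441). Cebpd, a transcription factor of the acute phase, and Adm, the vasodilator adrenomedullin, were higher, at log2 changes of 0.92 ± 0.077, adjusted p = 0.00101 and 1.23 ± 0.16, adjusted p = 0.00423. Ednrb, an endothelin receptor of aerocytes, and Prx, periaxin, a gene of lung capillaries, had log2 changes of 1.18 ± 0.16, adjusted p = 0.00556 and 0.77 ± 0.11, adjusted p = 0.00801. The calls for Tgfbr3, Mmp11, Tnfsf13b, C3ar1, Cebpd, Adm, Ednrb and Prx held in all 6 fits without 1 tag. The Mmp11 call was lost at 5000 reads per cell (log2 change -1.27, adjusted p = 0.0969). The Tnfsf13b call was lost at 5000 reads per cell (log2 change 0.53, adjusted p = 0.198).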
